A study of Homo sapiens with 3 samples.

Results

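PLCG2 encodes phospholipase C gamma 2, an enzyme of the cell membrane. It was 1 gene of 33538 in the count tables of the series and was found by its symbol. It was picked because its level was low in both PAX6-edited libraries, so the differences between genotypes below describe that choice and carry no test. The study profiled single cells of 3 libraries, 1 per genotype, from the human embryonic stem cell line H1 after differentiation toward pancreatic beta cells. The groups were PAX6-/- cells (KO), PAX6+/- cells (HET) and wild-type cells (WT). All 3 share the H1 background, the labelled cell type and enzymatic dissociation into single cells. PAX6 encodes a DNA-binding factor needed for eye, brain and islet development. The sources used here do not give the position of the lesion or the number of clones. With 1 library each, genotype and library cannot be told apart, and intervals cover counting error only.

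Phospholipase C enzymes cleave the membrane lipid PIP2 into IP3, which opens calcium channels of the endoplasmic reticulum, and diacylglycerol, which recruits protein kinase C. The gamma forms are switched on by tyrosine phosphorylation. PLCG2 is best known in B cells and other blood cells, where it acts after the kinases SYK and BTK, and it is also a marker of chemosensory tuft cells, whereas its relative PLCG1 is found in most tissues.

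PLCG2 (ENSG00000197943) lies on the plus strand of chromosome 16, at chr16:81739097-81962693 in the GENCODE 29 annotation of GRCh38. The 300 bases around its RefSeq start, 250 before and 50 after (chr16:81738791-81739090, plus strand, GRCh38.p14), are shown because the edited gene encodes a DNA-binding factor. Capitals mark the matches to short motifs linked to PAX6, searched on both strands.
PLCG2 promoter: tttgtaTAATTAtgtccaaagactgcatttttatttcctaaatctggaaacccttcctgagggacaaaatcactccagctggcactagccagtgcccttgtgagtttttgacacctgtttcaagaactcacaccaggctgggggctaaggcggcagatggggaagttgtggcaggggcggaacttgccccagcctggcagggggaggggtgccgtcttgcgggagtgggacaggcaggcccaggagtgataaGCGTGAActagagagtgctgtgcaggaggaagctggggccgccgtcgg
The homeodomain core TAAT matched at positions 7 and 9, counted from the left end and overlapping on opposite strands, and 50.2% of 35116 RefSeq promoters of the same length held it. TTCACGC, the core of the PAX6 paired-domain consensus, matched once on the minus strand at position 253, and 1.34% of the promoters held it. The paired homeodomain dimer site was also searched and had 0 matches, and 0.365% of the promoters held it. The matches found describe letters and say nothing of binding.

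The KO library held 9726 barcodes and 145948590 UMIs (unique molecular identifiers, each standing for 1 captured RNA molecule), the HET library 9628 and 136834433, and the WT library 9667 and 140068492. Kept were barcodes that reached 1000 UMIs and 500 genes and had no more than 20% of their UMIs on mitochondrial (MT) genes, which left 8785 KO, 8468 HET and 8662 WT cells. Their median depth was 15137 UMIs in KO, 13979.5 in HET and 14316 in WT, and their median MT share was 5.68%, 6.35% and 4.97%. Pairs of libraries shared 26 to 43 barcodes. Levels are counts per 1000000 UMIs of the library or class (CPM). A cell with at least 10 UMIs of CHGA, the chromogranin A gene of endocrine granules, per 10000 was called CHGA-high and any other CHGA-low. CHGA-high is a range of a continuous level and not a cell type, and 178 KO, 141 HET and 298 WT cells lay between 5 and 10 per 10000. CHGA-high cells numbered 1122 in KO, 638 in HET and 1649 in WT, and CHGA-low cells 7663, 7830 and 7013. The label of beta cells did not describe all of these cells. Of the 20 clusters formed from all cells, 8 had 15 to 19 of 19 endocrine markers at least 2-fold enriched and 12 had none. The endocrine markers are not particular to beta cells, so they do not give the number of beta cells. The insulin gene INS was at 1739 CPM in KO, 6554 CPM in HET and 7362 CPM in WT in CHGA-high cells, and at 25.2, 51.9 and 148 CPM in CHGA-low cells. PAX6 RNA in CHGA-high cells was at 284 CPM in KO, 226 CPM in HET and 294 CPM in WT, which does not check the genotype, since an edited allele can still be transcribed.

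PLCG2 was low in both edited libraries in both classes. In CHGA-high cells it was at 126 CPM in KO (95% counting interval 121 to 132), 128 CPM in HET (121 to 135) and 484 CPM in WT (476 to 493). In CHGA-low cells it was at 167 CPM in KO (165 to 169), 143 CPM in HET (141 to 145) and 522 CPM in WT (518 to 527). The edited libraries lay close to each other and far below WT. Per cell these levels were means of 1.79 UMIs in KO, 2.07 in HET and 7.55 in WT for CHGA-high cells, and 2.79 in KO, 2.27 in HET and 8.38 in WT for CHGA-low cells.

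In CHGA-high cells PLCG2 was 3.83-fold lower in KO than in WT (3.65 to 4.02) and 3.79-fold lower in HET than in WT (3.58 to 4.01). In CHGA-low cells the KO level was 3.13-fold below WT (3.08 to 3.18) and the HET level 3.66-fold below it (3.596 to 3.72). Both comparisons share the WT library, so they are not independent of each other. Between the edited libraries the log2 ratio of KO over HET was -0.02 in CHGA-high cells (-0.12 to 0.08) and 0.23 in CHGA-low cells (0.20 to 0.25). KO was thus a little above HET in CHGA-low cells, while in CHGA-high cells the interval of the difference included equal levels.

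Few genes were as far below WT. Among genes with at least 10 CPM in a library compared, 2.81% were at least 2-fold lower in KO than in WT in CHGA-high cells and 1.59% in CHGA-low cells. For HET against WT the shares were 1.23% and 0.973%. Counted from the most lowered gene, PLCG2 stood at place 66 of 10015 genes in KO and place 13 of 9870 in HET for CHGA-high cells. For CHGA-low cells it stood at place 27 of 9292 in KO and place 11 of 9357 in HET. For KO over HET it was at place 3151 of 9889 and 8419 of 9293, where 1.42% and 1.03% of genes were at least 2-fold lower and 0.991% and 0.463% at least 2-fold higher. Because PLCG2 was picked from these contrasts, the places describe it and support nothing. The split of such genes depended on scaling: with TMM factors, which shift the median gene by -0.13 in CHGA-high KO over WT and by -0.10 and -0.11 in CHGA-low KO and HET over WT, the lowered share of genes past 2-fold was 66.8%, 74.5% and 58.8% in these comparisons, in place of 51.8%, 59.7% and 38.7%.

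Most cells of the edited libraries still had PLCG2 UMIs, in smaller numbers than WT cells. At least 1 PLCG2 UMI was found in 70.5% of KO, 75.2% of HET and 95.5% of WT CHGA-high cells, whose median depths were 12709.5, 13363 and 13427 UMIs. In CHGA-low cells the shares were 86.5% in KO, 79.8% in HET and 98.9% in WT, at median depths of 15593, 14015 and 14528 UMIs. Thinning every cell to 5000 UMIs, which left out 131 KO, 30 HET and 138 WT CHGA-high cells and 178, 193 and 257 CHGA-low cells, widened the gap in percentage points. The unthinned WT shares were close to the highest value a share can take. The thinned shares were 47.0% in KO, 41.9% in HET and 88.6% in WT for CHGA-high cells, and 53.7% in KO, 48.2% in HET and 89.9% in WT for CHGA-low cells.

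At 6 or more PLCG2 UMIs there were 4.99% of KO, 7.84% of HET and 66.2% of WT CHGA-high cells, and 11.7% of KO, 7.96% of HET and 73.6% of WT CHGA-low cells. Among CHGA-low cells of 10000 to 20000 UMIs, the 10th and 90th percentiles were 0 and 5 UMIs in KO, 0 and 4 in HET and 4 and 13 in WT. The 90th percentile of HET thus equalled the 10th percentile of WT, and that of KO lay 1 UMI above it. The WT counts were also spread over many cells: the 10% of CHGA-low cells with the most PLCG2 UMIs held 30.9% of them in KO, 33.4% in HET and 20.7% in WT. Cells with 20 or more PLCG2 UMIs numbered 9 in KO, 11 in HET and 132 in WT, and the WT ones were spread out too, with 27 in the cluster that held most.

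**Figure D1:**
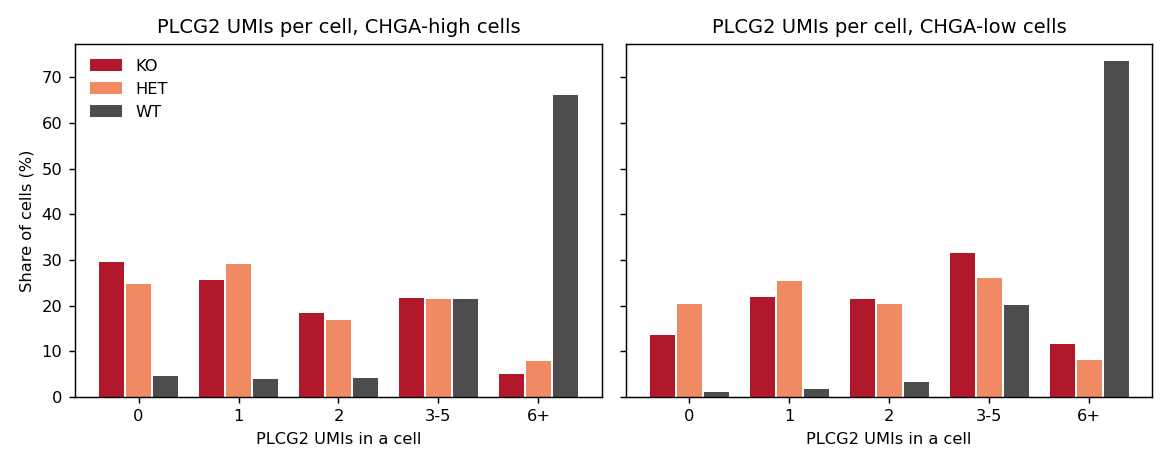
Share of CHGA-high (left) and CHGA-low (right) cells by the number of PLCG2 UMIs in the cell, for the KO, HET and WT libraries. The WT bars stand highest at 6 or more UMIs (66.2% and 73.6% of cells), while those of KO and HET are spread from 0 to 5.

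PLCG2 depended on cell depth in an unusual way, most of all in WT. At 6000 to 10000, 10000 to 20000, 20000 to 40000 and at least 40000 UMIs, KO CHGA-low cells had 2.14, 2.53, 3.70 and 5.69 PLCG2 UMIs per cell. HET CHGA-low cells had 1.57, 2.04, 3.19 and 6.82, and WT CHGA-low cells 7.32, 8.22, 9.75 and 11.7. Counts thus grew by more, in proportion, in KO and HET than in WT. The PLCG2 level of the same cells was 254, 171, 147 and 124 CPM in KO, 186, 143, 124 and 134 CPM in HET, and 875, 567, 378 and 225 CPM in WT.

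The size of the difference depended on whether it was taken as a ratio or as a count. From 6000 UMIs upward, KO and HET cells had 4.87 to 6.70 fewer PLCG2 UMIs per cell than WT cells of the same depth range, over the 14 comparisons with at least 50 cells on each side in both classes. As a ratio of CPM, PLCG2 in CHGA-low KO cells was 3.44-fold, 3.31-fold, 2.57-fold and 1.82-fold lower than in WT from the shallowest to the deepest of these ranges. In CHGA-low HET cells it was 4.70-fold, 3.96-fold, 3.04-fold and 1.68-fold lower. The fold difference thus shrank with depth from 6000 UMIs upward, while the difference in counts stayed in the range given. CHGA-low cells of 3000 to 6000 UMIs were 4.56-fold lower in KO and 4.87-fold lower in HET. At 1000 to 3000 UMIs the fold was smaller, at 2.63 in KO and 2.41 in HET, with 2.86 and 2.84 fewer UMIs per cell.

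CHGA-high cells from 6000 UMIs upward also had a fold that shrank with depth, apart from the KO fold, which was not smaller in the middle range. From 6000 to 10000, 10000 to 20000 and 20000 to 40000 UMIs, KO cells had 1.52, 1.65 and 3.29 PLCG2 UMIs per cell, HET cells 1.21, 1.73 and 3.50, and WT cells 6.46, 7.73 and 9.99. The fold below WT was 4.34, 4.57 and 3.01 in KO and 5.42, 4.40 and 2.92 in HET. Above 40000 UMIs the CHGA-high class had 21 KO, 20 HET and 48 WT cells, with 6.14, 6.65 and 11.2 PLCG2 UMIs per cell and a fold of 1.64 in KO and 1.53 in HET.

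**Figure D2:**
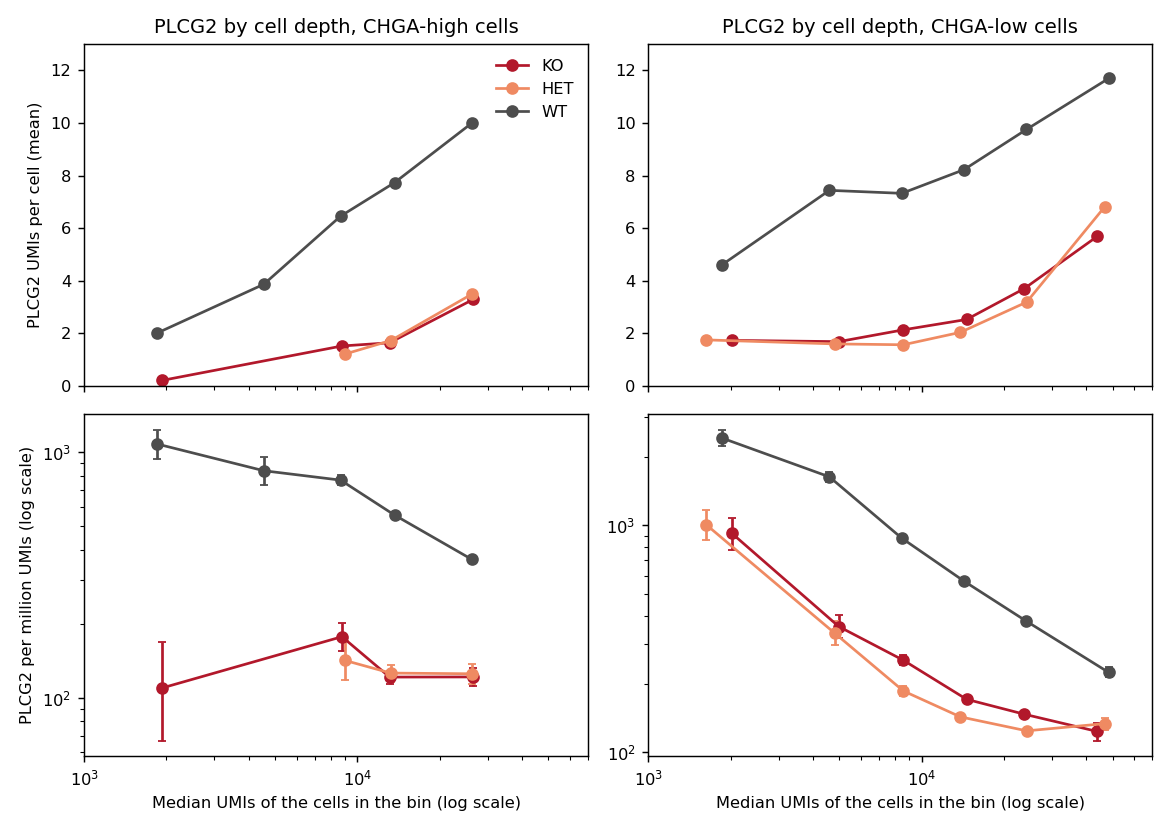
Mean PLCG2 UMIs per cell (top) and PLCG2 CPM with 95% counting intervals on a log scale (bottom) against the median depth of the cells in each depth range, for CHGA-high (left) and CHGA-low (right) cells of the KO, HET and WT libraries. Ranges with under 50 cells are left out, and in CHGA-low cells the WT line runs from 7.32 to 11.7 UMIs per cell between 6000 UMIs and the deepest range while its CPM runs down to 225.

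Among genes with at least 50 CPM this dependence was rare. Between CHGA-low cells of 6000 to 10000 and of 20000 to 40000 UMIs, mean depth differed 2.99-fold in KO, 3.05-fold in HET and 3.09-fold in WT, and PLCG2 UMIs per cell differed 1.73-fold in KO, 2.03-fold in HET and 1.33-fold in WT. A smaller ratio than that of PLCG2 was found for 0.742% of 3236 genes in KO, 1.46% of 3281 in HET and 0.127% of 3162 in WT. The WT genes below PLCG2, looked up after its value was seen, were the gut hormone gene PYY at 0.878-fold, the somatostatin gene SST at 0.927-fold, the somatostatin receptor gene SSTR2 at 1.08-fold and MTRNR2L12 at 1.12-fold. In CHGA-high cells the PLCG2 ratio was 2.16 in KO, 2.88 in HET and 1.55 in WT, with 6.51%, 35.8% and 1.19% of genes below it. The PLCG2 ratio was thus near the low end of all genes in both WT classes, and among CHGA-high HET cells it was not.

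SST is made by endocrine cells, and its UMIs in CHGA-low cells may include RNA free in the suspension. They may also come from CHGA-low cells that make SST. Of the WT cells in clusters 16 and 18, both led by SST, 63.0% and 88.8% were CHGA-high and the rest CHGA-low. WT CHGA-low cells of 10000 to 20000 UMIs had SST in 40.0% and PLCG2 in 99.7% of cells. In KO cells of this class and depth the shares were 1.21% and 86.5%, and in HET cells 13.1% and 79.4%. WT barcodes of under 1000 UMIs, which were left out above, had SST in 42.5% of barcodes. They held 2.43 SST and 0.542 PLCG2 UMIs per barcode, against 3.78 and 8.22 in the CHGA-low cells of 10000 to 20000 UMIs. The shallow barcodes held PLCG2 at 375 CPM in KO (287 to 482), 183 CPM in HET (133 to 245) and 750 CPM in WT (640 to 873), which for WT is above the 567 CPM of the CHGA-low cells of 10000 to 20000 UMIs. The part of free RNA in the PLCG2 counts was not tested.

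The shallowest cells also held a few extreme counts. Among CHGA-low cells of 1000 to 3000 UMIs, 91 in KO, 102 in HET and 117 in WT, the highest count was 74 PLCG2 UMIs in KO, 40 in HET and 44 in WT. The medians there were 0, 0 and 2 UMIs. The level in this range was 919 CPM in KO, 1003 CPM in HET and 2419 CPM in WT, and a few cells held much of the edited libraries' counts.

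In CHGA-low cells the difference was present at each MT share, a value that is often high in damaged cells. At 10000 to 20000 UMIs, CHGA-low KO cells had PLCG2 at 281, 194, 155 and 132 CPM for MT shares of 0 to 2.5%, 2.5 to 5%, 5 to 10% and 10 to 20%. HET cells had 138, 156, 141 and 119 CPM over the same ranges, and WT cells 581, 574, 558 and 526 CPM. PLCG2 was lower at high MT shares in KO and nearly level in WT, and each WT range lay above every KO and HET range. CHGA-high cells of this depth with an MT share under 2.5% were 2 in KO, 2 in HET and 34 in WT, at 76.4 CPM in KO (9.25 to 276), 485 CPM in HET (251 to 848) and 448 CPM in WT (389 to 513), so HET was not lower there. Shares of 2.5 to 5% went with 181 CPM in 17 KO, 243 CPM in 14 HET and 627 CPM in 169 WT cells. In CHGA-high cells MT shares of 5 to 10% went with 117 CPM in KO, 120 CPM in HET and 541 CPM in WT, and shares of 10 to 20% with 123, 118 and 541 CPM. Barcodes of at least 1000 UMIs left out for more than 20% MT had 109 CPM in KO, 91.0 CPM in HET and 704 CPM in WT. Both edited libraries thus lay below WT in these barcodes.

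MALAT1, a long noncoding RNA kept in the nucleus, is another sign of cell state and was at 27970 CPM in KO, 26685 CPM in HET and 35282 CPM in WT for CHGA-low cells. Within 10000 to 20000 UMIs, the 25% of CHGA-low cells with the lowest and the 25% with the highest MALAT1 share had PLCG2 at 166 and 193 CPM in KO, 147 and 152 CPM in HET, and 533 and 612 CPM in WT. The WT cells with the least MALAT1 lay above each KO and HET group, with groups cut within each library. The part of MALAT1 in the difference between libraries was not tested. CHGA-high cells of this depth with and without a PAX6 UMI had PLCG2 at 119 and 125 CPM in KO, 126 and 126 CPM in HET, and 542 and 577 CPM in WT. Both edited libraries thus lay below WT in cells with and without a PAX6 UMI alike.

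Across cell clusters the excess was general. The cells of the 3 libraries were clustered together with PLCG2 left out of the genes used, and clusters keep numbers and leading genes. All 15 clusters with at least 50 cells in both KO and WT had PLCG2 at least 2-fold lower in KO, by 2.16-fold to 5.98-fold with a median of 3.42-fold. All 15 with at least 50 cells in both HET and WT had it at least 2-fold lower in HET, by 2.01-fold to 5.54-fold with a median of 3.73-fold. Of 17 clusters shared by KO and HET, 6 had lower PLCG2 in KO and none was 2-fold apart. The clusters come from the same 3 libraries, so clusters are not replicates.

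The smallest fold in both comparisons was that of cluster 19, the deepest cluster, led by PYY, GCG and IAPP. It had 137 CPM in KO, 147 CPM in HET and 296 CPM in WT, at median depths of 28103, 28423 and 30915 UMIs. The largest fold in HET was in cluster 5, led by SHOX2, HPGD and ITGA4, with 110 CPM in KO, 110 CPM in HET and 608 CPM in WT. The largest in KO was in cluster 16, led by SST, with 124 CPM in KO and 742 CPM in WT at median depths of 2350 and 2262 UMIs. The deepest cluster thus had the smallest fold, and the shallowest the largest one in KO.

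The highest level in all 3 libraries was in cluster 9, a shallow cluster led by CMYA5 and 2 unnamed transcripts, with the metallothionein gene MT2A and the stress-response genes GADD45B and ATF3 among its 10 leading genes. PLCG2 was at 337 CPM there in KO, 279 CPM in HET and 967 CPM in WT, at median depths of 8701, 8096 and 9364 UMIs. PLCG2 in cluster 9 was 2.87-fold below WT in KO and 3.47-fold in HET, both under the medians over clusters. The fold thus did not follow depth in every cluster. Cycling cells (cluster 10, led by TOP2A and MKI67) had 159 CPM in KO, 138 CPM in HET and 368 CPM in WT. The serotonin-pathway cluster 13, led by TPH1, had 133 CPM in KO, 113 CPM in HET and 475 CPM in WT. Both edited libraries lay below WT in proliferating and endocrine cells alike, while the order of KO and HET was not the same in all clusters.

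Leaving out the shallow cluster 16, mean PLCG2 UMIs per cell ranged from 1.42 to 3.84 over 17 KO clusters, a 2.70-fold range for a 3.23-fold range of median depth. Over 18 HET clusters the mean ranged from 1.32 to 4.35, a 3.28-fold range for a 3.51-fold range of depth. Over 16 WT clusters it ranged from 6.99 to 9.98, a 1.43-fold range for a 3.30-fold range of depth. PLCG2 counts were therefore more even between WT clusters than depth was. As a description over clusters, which share libraries and depth, Pearson's r between log2 median depth and log2 CPM was -0.00 in KO (18 clusters), -0.28 in HET (18) and -0.72 in WT (17). The shallow cluster 16 counts here in KO and WT but not in HET, where it had under 50 cells. These r values thus rest on unlike sets of clusters, and r without cluster 16 was not computed. At least 1 PLCG2 UMI was found in 64.7% to 92.6% of cells per KO cluster, 68.4% to 92.8% in HET and 97.4% to 100% in WT, again without cluster 16, where the shares were 18.01% in KO and 56.1% in WT. No cluster lacked PLCG2, so none could serve as its background.

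**Figure D3:**
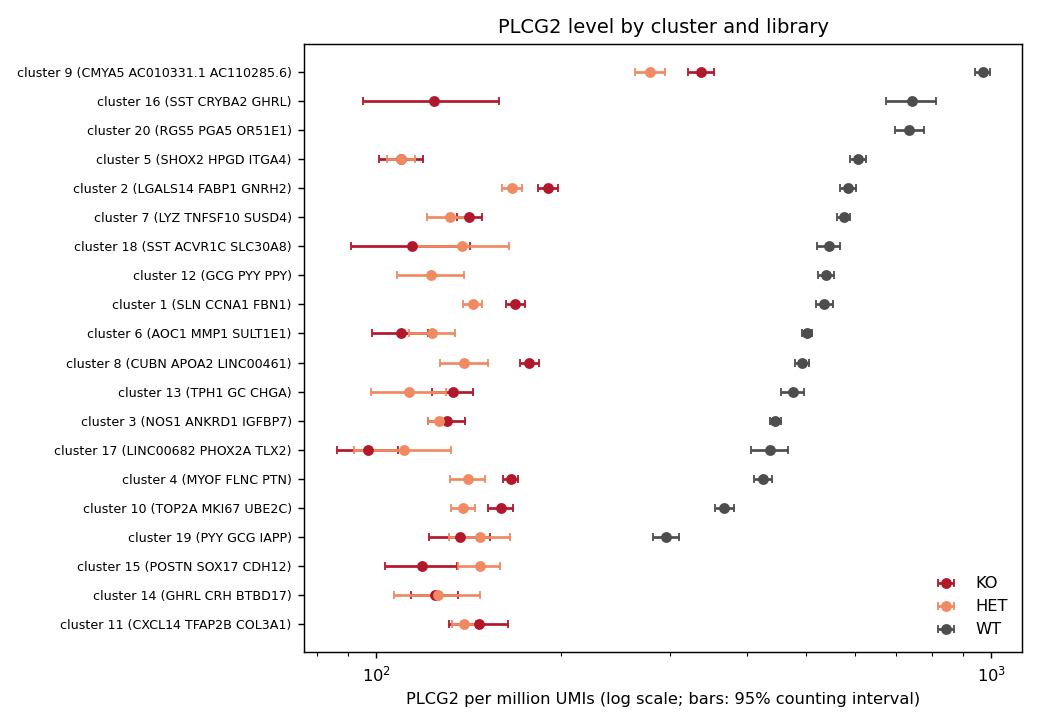
PLCG2 level per cluster in CPM on a log scale, with 95% counting intervals, for each library with at least 50 cells of that cluster (KO, HET and WT); the 3 leading genes of each cluster are in brackets. WT points lie between 296 and 967 CPM and, in every cluster with a WT point and an edited one, to the right of the KO and HET points.

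Of 17 other phospholipase C genes, 10 in CHGA-high and 8 in CHGA-low cells had at least 10 CPM, and none was at least 2-fold lower in HET than in WT. The shares over all genes were 1.23% and 0.973%, so these counts are near the background. In KO, PLCE1, an enzyme tied to Ras signalling, was at 21.5 CPM, against 52.4 CPM in HET and 43.9 CPM in WT in CHGA-high cells, 1 of 10 members (the share over all genes was 2.81%). In CHGA-low cells PLCE1 was at 15.6 CPM in KO, 12.5 CPM in HET and 13.3 CPM in WT. PLCE1 was also listed as a marker of islet alpha cells, and the part of cell types in its level was not tested. The median log2 ratio of the family to WT in CHGA-high cells was -0.14 in KO and -0.07 in HET, beside 0.12 and 0.03 over all genes. In CHGA-low cells it was 0.17 in KO and 0.01 in HET, beside 0.08 and 0.08, and the HET value turned to -0.10 with TMM factors.

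PLCG1, the close relative of PLCG2 with the same domain layout, was at 27.7 CPM in KO, 18.6 CPM in HET and 19.7 CPM in WT in CHGA-high cells, and at 21.4, 20.3 and 18.8 CPM in CHGA-low cells. PLCG1 in HET was thus slightly below WT in CHGA-high cells, and the other values in the edited libraries were above it. PLCB4, a form driven by G proteins, was at 63.9 CPM in KO, 43.5 CPM in HET and 39.5 CPM in WT in CHGA-high cells. PLCXD1, a less studied member, was at 85.3 CPM in KO, 110 CPM in HET and 133 CPM in WT in CHGA-low cells. These differences stayed within 2-fold.

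Of the kinases and adaptors that act above the gamma enzymes, 17 of 32 in CHGA-high and 15 of 32 in CHGA-low cells had at least 10 CPM, and none was 2-fold apart between any pair of libraries. Over all genes the shares were 0.463% to 2.81% per direction, so a count of 0 is near the background. SYK, the kinase that activates PLCG2 in B cells, was at 3.20 CPM in KO, 4.83 CPM in HET and 2.25 CPM in WT in CHGA-high cells, and BTK at 0.188, 0.193 and 0.117 CPM. Both were under the 10 CPM needed here. The general adaptor SHC1 was at 31.2 CPM in KO, 31.5 CPM in HET and 57.0 CPM in WT in CHGA-high cells, and GRB2 at 105, 93.5 and 82.3 CPM. The median log2 ratio of this list to WT was 0.36 in KO and 0.19 in HET for CHGA-high cells and 0.20 and 0.21 for CHGA-low cells.

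Among receptor tyrosine kinases that recruit the gamma enzymes, 12 of 18 in CHGA-high cells could be compared and none was 2-fold apart, again near the background of 0.942% to 2.81% per direction against WT. In CHGA-low cells 13 could, where 0.973% of all genes were 2-fold lower in HET and 1.08% 2-fold higher in KO. There the platelet-derived growth factor receptor gene PDGFRB was at 12.5 CPM in KO, 7.19 CPM in HET and 19.3 CPM in WT, 2-fold lower only in HET. The stem cell factor receptor gene KIT was at 32.3 CPM in KO, 14.8 CPM in HET and 12.1 CPM in WT, 2-fold higher in KO than in either other library. KIT is also among the 10 leading genes of cluster 8, which held 967 KO, 195 HET and 681 WT cells. The part of cluster sizes in its level was not tested. FGFR2, a receptor of pancreatic progenitors, was at 360 CPM in KO, 324 CPM in HET and 347 CPM in WT in CHGA-low cells.

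Few IP3 and diacylglycerol response genes were 2-fold apart from WT, and some of these calls were lost with TMM factors. Counts this small describe single genes and not the list. Of 42, 24 could be compared between KO and WT and 23 between HET and WT in CHGA-high cells. The protein kinase C gene PRKCE was at 20.3 CPM in KO, 14.9 CPM in HET and 7.31 CPM in WT, at least 2-fold higher in both, although the HET call was lost with TMM factors. The diacylglycerol kinase gene DGKH was at 47.1 CPM in KO, 29.4 CPM in HET and 17.3 CPM in WT, and the exchange factor gene RASGRP1 at 19.9, 8.31 and 9.91 CPM. Both were at least 2-fold higher in KO than in WT, RASGRP1 only without TMM factors. That made 3 of 24 members higher in KO (2.61% over all genes) and 1 of 23 in HET (0.942%), and none lower. With TMM factors, 2 were higher and PRKCA, at 5.78 CPM in KO, 11.3 CPM in HET and 11.5 CPM in WT, passed 2-fold lower in KO.

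In CHGA-low cells the IP3 receptor gene ITPR2 was at 7.60 CPM in KO, 15.9 CPM in HET and 7.53 CPM in WT. DGKH was at 45.9 CPM in KO, 50.5 CPM in HET and 24.98 CPM in WT, and the protein kinase C gene PRKCQ at 17.0, 8.15 and 7.49 CPM. ITPR2 and DGKH were thus 2 of 21 members at least 2-fold higher in HET than in WT (1.54% over all genes), both lost with TMM factors, and PRKCQ 1 of 20 in KO (1.08%). The calcium entry channel genes ORAI1 and ORAI3 stayed within 2-fold, with ORAI1 at 38.4 CPM in KO, 39.8 CPM in HET and 59.9 CPM in WT in CHGA-low cells.

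**Figure D4:**
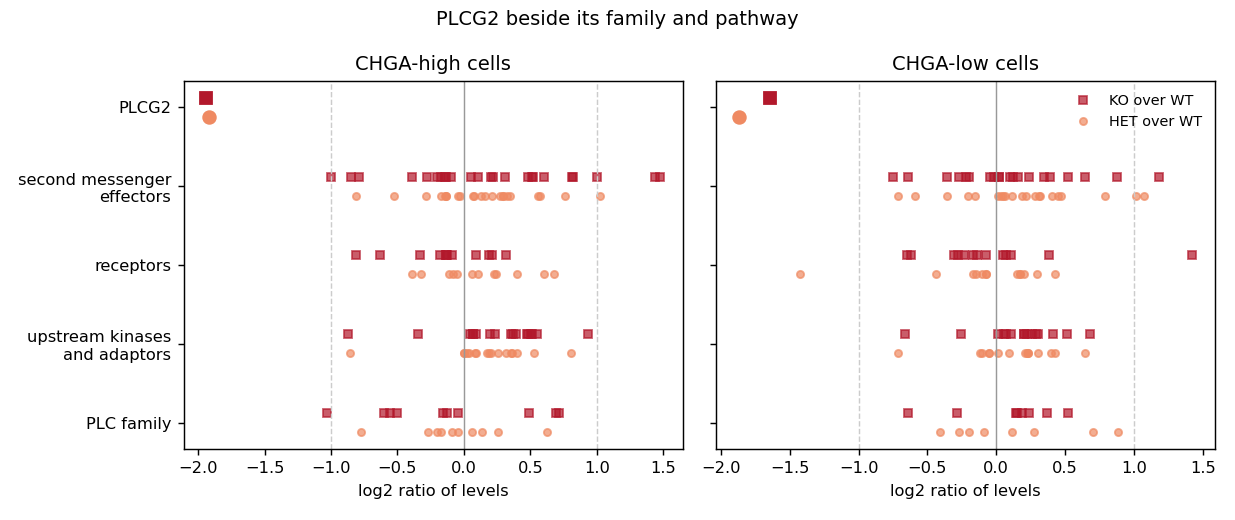
Log2 ratios of levels, KO over WT (squares) and HET over WT (circles), for PLCG2 and for the genes of 4 lists that reached 10 CPM in one of the libraries set side by side, in CHGA-high (left) and CHGA-low (right) cells; dashed lines mark 2-fold. PLCG2 lies between -1.94 and -1.65, to the left of every other gene shown.

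Cells that normally carry PLCG2 left little trace. Of 15 tuft cell markers, 12 in KO, 11 in HET and 10 in WT were under 1 CPM in CHGA-high cells, and their summed level was 24.4 CPM in KO, 31.1 CPM in HET and 46.1 CPM in WT. The defining tuft factor POU2F3 was at 0 in KO, 0.193 CPM in HET and 0.156 CPM in WT, and the taste channel gene TRPM5 at 3.39, 13.6 and 19.7 CPM. In CHGA-low cells the tuft sum was 9.42 CPM in KO, 8.38 CPM in HET and 7.23 CPM in WT. Most of the CHGA-high gap between KO and WT was TRPM5. DCLK1, the other abundant member, was at 16.8 CPM in KO, 9.86 CPM in HET and 16.6 CPM in WT. Both TRPM5 and DCLK1 thus lay below WT in HET. The part of tuft cells in the PLCG2 difference was not tested.

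Of 14 markers of B cells and other immune cells, 12 in KO, 12 in HET and 12 in WT were under 1 CPM in CHGA-low cells. The leukocyte gene PTPRC was at 0.0628 CPM in KO, 0 in HET and 0.0389 CPM in WT in CHGA-high cells. The list's sum of 75.5 CPM in KO, 74.7 CPM in HET and 163 CPM in WT in CHGA-low cells was nearly all lysozyme (LYZ, at 70.8, 70.0 and 158 CPM). LYZ leads cluster 7, whose cells also carry the gut factor CDX1, and is made by gut epithelium as well as by myeloid cells. PLCG2 in cluster 7 was at 142 CPM in KO, 132 CPM in HET and 575 CPM in WT, inside the range of the other clusters.

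Of the immediate early genes, which can rise during dissociation, FOSB was the one at least 2-fold higher in both edited libraries in both classes. FOSB was at 90.5 CPM in KO, 150 CPM in HET and 21.0 CPM in WT in CHGA-high cells, and at 78.5, 111 and 30.7 CPM in CHGA-low cells. FOS was at 365 CPM in KO, 411 CPM in HET and 203 CPM in WT in CHGA-high cells. Of the 12 genes of this list, 1 was at least 2-fold higher in KO than in WT and 2 in HET than in WT in CHGA-high cells (1 with TMM factors), beside 2.61% and 0.942% over all genes. In CHGA-low cells it was FOSB alone in each edited library, beside 1.08% and 1.54% over all genes. The list's median log2 ratio to WT was 0.38 in KO and 0.36 in HET for CHGA-high cells and 0.13 and 0.13 for CHGA-low cells, the last pair 0.02 and 0.01 with TMM factors. The part of dissociation in the PLCG2 difference was not tested.

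No gene around PLCG2 with at least 10 CPM was 2-fold apart from WT. Within 1000 kb on either side, 52 genes were annotated and 30 were in the count tables. Other than PLCG2, 6 in CHGA-high cells reached 10 CPM in both comparisons, and 8 for KO and 9 for HET in CHGA-low cells. Their log2 ratio to WT ran from -0.29 to 0.67 in KO and -0.28 to 0.45 in HET for CHGA-high cells, and from -0.27 to 0.63 in KO and -0.71 to 0.55 in HET for CHGA-low cells. With 2.81% and 1.23% of all genes 2-fold lower in CHGA-high KO and HET, and 1.59% and 0.973% in CHGA-low KO and HET, a count of 0 among so few genes is near the background. Under the limit, CDH13, a cadherin gene named after its values were seen, was at 0.628 CPM in KO, 1.93 CPM in HET and 4.04 CPM in WT in CHGA-high cells. In CHGA-low cells CDH13 was at 0.289 CPM in KO, 0.885 CPM in HET and 0.471 CPM in WT, so HET lay above WT there. The nearest upstream gene compared, the adaptor gene CMIP, was at 86.1 CPM in KO, 87.4 CPM in HET and 81.1 CPM in WT in CHGA-high cells. The nearest downstream gene compared, the steroid dehydrogenase gene HSD17B2, was at 11.2 CPM in KO, 7.33 CPM in HET and 11.9 CPM in WT in CHGA-low cells. AC099524.1, which overlaps the start of PLCG2 on the same strand, had at most 0.0389 CPM in any library or class.

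**Figure D5:**
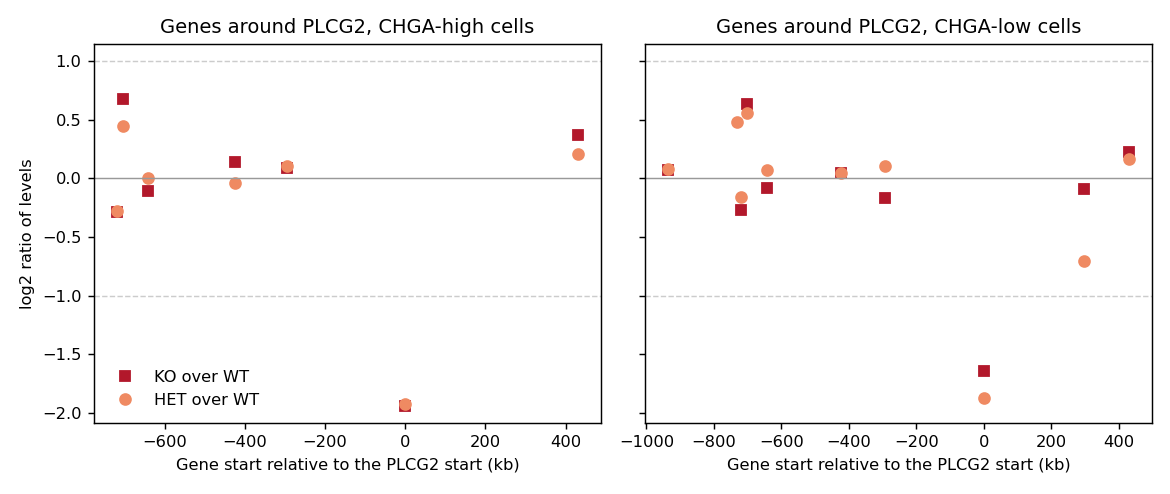
Log2 ratios of levels, KO over WT (squares) and HET over WT (circles), of PLCG2 and the genes within 1000 kb of it that had at least 10 CPM in that class in a library compared, against the distance of their start from that of PLCG2 in kb, in CHGA-high (left) and CHGA-low (right) cells; dashed lines mark 2-fold. Only PLCG2, at 0 kb, lies below the lower line.

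The genes whose level most resembled that of PLCG2 over 53 sums of a library and a cluster, among 10693 genes, were ARF1 (Pearson's r 0.87), SERP1 (0.80), MAFG (0.80), KDELR1 (0.79) and EIF1 (0.79). ARF1 and KDELR1 act in transport between the endoplasmic reticulum and the Golgi, SERP1 protects new membrane proteins in the endoplasmic reticulum, MAFG is a small MAF transcription factor and EIF1 selects the start codon in translation. In CHGA-low cells ARF1 was at 217 CPM in KO, 222 CPM in HET and 292 CPM in WT, and KDELR1 at 287, 305 and 476 CPM. Their differences from WT were smaller than that of PLCG2. Within a library the likeness was lower: r for ARF1 was 0.51 in KO, 0.61 in HET and 0.46 in WT, and for KDELR1 0.03, 0.31 and -0.03. The sums share libraries and depth, so these values describe them only.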

How the data were processed

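Per the labels' protocols, a 10x Genomics Chromium kit and NovaSeq sequencing were used for the 3 libraries; whether the kit reads the 3′ or the 5′ end is not given in the sources used here. The authors deposited raw UMI counts per gene and barcode, as whole numbers; per the file headers they came from Cell Ranger 6.1.2. GRCh38 and Seurat are listed, with no role, in the submitters' processing notes. PLCG2 and the gene lists were chosen with earlier results of these data known.

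Counts were summed per library and class and divided by the UMI total (CPM). Genotypes had 1 library each, so no test was made. Ratios have exact conditional Poisson intervals and shares exact (Clopper-Pearson) intervals, at 95%, which cover counting error only. The ratio step was checked on simulated counts. A gene at 0 was set at a floor of 3 counts. A gene was compared with at least 10 CPM in either library and counted when at least 2-fold apart. PLCG2, PAX6, CHGA, genes within 1000 kb, list members and the 5 genes most like PLCG2 could be named; SSTR2, MTRNR2L12, PYY, SST and MALAT1 were added after values were seen.

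Scrublet's automatic threshold called 1168 WT cells and 0 HET or KO cells. It had therefore not worked evenly, so no cell was removed as a doublet, and an alternative removed the top 8% of scores per library. Clusters came from 2000 variable genes (without PLCG2, PAX6, MT, ribosomal protein and hormone genes), 30 principal components, 20 neighbours and the Leiden algorithm at resolution 1 (scanpy 1.11.5, leidenalg 0.10.2), without batch integration. TMM factors came from edgeR 4.0.16 in R 4.3.3 on the deposited counts.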

Additional observations from a re-analysis of the deposited data

How the results depend on the processing

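PLCG2 stayed at least 2-fold below WT in KO and HET, in both classes, under all 10 alternatives, with log2 ratios of -2.19 to -1.90 (KO) and -2.25 to -1.81 (HET) in CHGA-high cells and of -1.77 to -1.63 (KO) and -2.00 to -1.86 (HET) in CHGA-low cells. Values outside the counting interval were as follows, as log2 ratios. With TMM factors, KO over WT was -2.07 in CHGA-high and -1.75 in CHGA-low cells, and HET over WT -1.98 in CHGA-low cells. With median-of-ratios size factors these 3 were -2.05, -1.77 and -2.00. Without the top 8% of doublet scores, KO over WT was -2.10 and -1.69, and HET over WT -2.07 and -1.92, in CHGA-high and CHGA-low cells. Thinned to 5000 UMIs they were -2.06 and -1.72, and -2.25 and -1.96, and KO over HET in CHGA-high cells turned to 0.19, in place of -0.02; the cause was not tested. In cells of 10000 to 20000 UMIs, chosen after seeing the data, they were -2.19 and -1.73, and -2.14 and -1.98, and KO over HET was 0.26 in CHGA-low cells. Stricter cells (at least 3000 UMIs, at most 10% MT) gave -1.81 for HET over WT and -0.13 for KO over HET in CHGA-high cells. With clusters weighing the same, KO over WT was -1.70 and KO over HET 0.13 in CHGA-low cells. The number of genes at least 2-fold apart rested on the level required. For KO over WT, HET over WT and KO over HET it was 542, 214 and 238 in CHGA-high cells and 248, 235 and 139 in CHGA-low cells. A minimum of 50 CPM gave 147, 48 and 55, and 68, 51 and 43, fewer genes being compared; no minimum gave 3465, 2456 and 2186, and 3866, 3890 and 2453. No paired analysis was possible because each genotype had 1 library, and for the same reason no replicate could be left out. Single clusters and depth ranges with few cells have wide counting intervals, and variation between differentiations was not measured.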
